A study of Homo sapiens with 16 samples.

Results

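Glucose uptake, its breakdown to pyruvate, the exchange of pyruvate with lactate, and the control of pyruvate entry into the mitochondrion were followed through 37 genes, among 60719 gene identifiers counted. The genes were chosen by name and role as transporters, enzymes and regulators of these steps, and all 37 passed the filter on low counts in every comparison. RNA sequencing was used to measure them in 16 libraries of MDA-MB-231, an established triple-negative breast cancer cell line. The study asked how loss of TXNIP, an inhibitor of glucose uptake, and knockdown of the transcription factor Myc change gene expression. Untreated unedited cells (parental 231, n = 2) were compared with untreated cells in which CRISPR/Cas9 had been directed at TXNIP (231:TKO, n = 2). Both populations were also treated for 48 hours with a non-targeting siRNA (parental 231+siNT and 231:TKO+siNT, n = 3 each) or a Myc siRNA (parental 231+siMyc and 231:TKO+siMyc, n = 3 each). All cells grew in DMEM with serum. The 231:TKO cells had been isolated from single cells, so they are clonal, and which clone gave which library is not stated. The untreated libraries hold single reads and the siRNA libraries hold read pairs, so levels were compared within each kind of library.

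Glycolysis splits each glucose into a pair of pyruvate molecules. Facilitative GLUT transporters (SLC2A genes) admit glucose, hexokinase traps it by phosphorylation, and phosphofructokinase-1 commits it to breakdown under the control of fructose-2,6-bisphosphate, which PFKFB enzymes make and remove. Lactate dehydrogenase converts pyruvate to lactate, which leaves through monocarboxylate transporters together with protons. Pyruvate dehydrogenase sends pyruvate into the mitochondrial citric acid cycle instead. PDK kinases switch that complex off and PDP phosphatases switch it on. Tumor cells often run glycolysis to lactate with oxygen present, and Myc and hypoxia-inducible factors are both known to activate several of these genes.

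The libraries held 18953668 to 59799444 assigned counts. TXNIP was at 283 CPM (counts scaled to library size by the trimmed mean of M-values over all libraries) in both parental 231 libraries, and at 12.4 and 45.5 CPM in 231:TKO replicates 1 and 2. The untreated difference had a log2 fold change of −3.29 ± 0.65 (SE) and an adjusted p of 0.0587 in edgeR's quasi-likelihood test, so it did not pass 0.05. In the siNT libraries it was 302 to 323 CPM in parental 231 and 6.54 to 7.92 CPM in 231:TKO. MYC was at 121 to 144 CPM in 231:TKO+siNT and 58.1 to 58.8 CPM in 231:TKO+siMyc. In parental 231 it was 127 to 132 CPM with siNT and 64.5 to 67.6 CPM with siMyc. The mesenchymal markers VIM, CD44, AXL, MSN and CAV1 were high in every library (lowest value 571 CPM, for CD44), and ESR1 and PGR did not exceed 0.31 and 0.08 CPM. ERBB2 was measurable at 76.2 to 106 CPM.

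Libraries stood apart in both the untreated and the siRNA data. The untreated 231:TKO replicates lay 0.344 (SD over 13448 genes, log2) from their mean, against 0.121 for the parental 231 replicates. Among the siRNA libraries, parental 231+siNT replicate 1 and parental 231+siMyc replicate 3 deviated from their group means together (correlation of deviations across 13448 genes 0.87, a description, with no p). Of the 37 genes, 32 were shifted the same way in both of these libraries, 7 of them by at least 0.25 on the log2 scale. SLC2A12, HK1, HK2, PFKFB2 and PFKFB3 were lower in the pair, and TPI1 and LDHB were higher. The siMyc results in parental 231 and the comparison of responses are therefore given with and without a covariate for this pair, and counts for 231:TKO+siNT against parental 231+siNT with and without replicate 1 of the latter.

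Levels between genes were compared as CPM per kilobase of exon. In parental 231+siNT the most abundant of the 37 was GAPDH, at 1277 CPM per kilobase, followed by ENO1 at 966, PKM at 474 and LDHA at 394. SLC16A1, which encodes the lactate transporter MCT1, was nearly silent. Its level was 0.103 to 0.916 CPM over the 16 libraries, from 3 to 30 counts, and the limit that 3 counts set was 0.0528 to 0.153 CPM. SLC16A3, which encodes the export-type transporter MCT4, made up 99.73 to 99.93% of the summed level of the pair of transporters in every group. The pair leaves out SLC16A7 (MCT2), not among the 37, which averaged 0.589 to 53.8 CPM by group, highest in untreated parental 231. TIGAR, a fructose-2,6-bisphosphatase, was also low, at 0.265 to 0.383 CPM per kilobase as group means. Another gene on its strand shares 18.1% of its exon bases, which limits the assignment of its reads.

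Most steps with several isoforms had a single leading one. In the untreated libraries SLC2A1 (GLUT1) gave 90.8% of the summed transporter level per kilobase in parental 231 and 88.8% in 231:TKO. In the siRNA libraries it gave 77.3% in parental 231+siNT, 75.0% in parental 231+siMyc, 69.5% in 231:TKO+siNT and 62.0% in 231:TKO+siMyc. The ranges that follow span all groups and both kinds of library, and are not a comparison between the kinds. HK1 exceeded HK2 in every group, with 64.2 to 76.9% of the hexokinase level. PFKP, the platelet-type phosphofructokinase-1, held 61.3 to 71.5% of its step, and PFKM, the muscle type, 5.38 to 12.99%. LDHA, the isoform linked to lactate production, held 82.2 to 92.6% of the lactate dehydrogenase level. Among the PDH kinases, PDK2 led in every group, at 43.6 to 70.9%. ENO1 held 96.0 to 97.7% of the enolase level, and ENO2, the neuronal form, the rest.

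**Figure D1:**
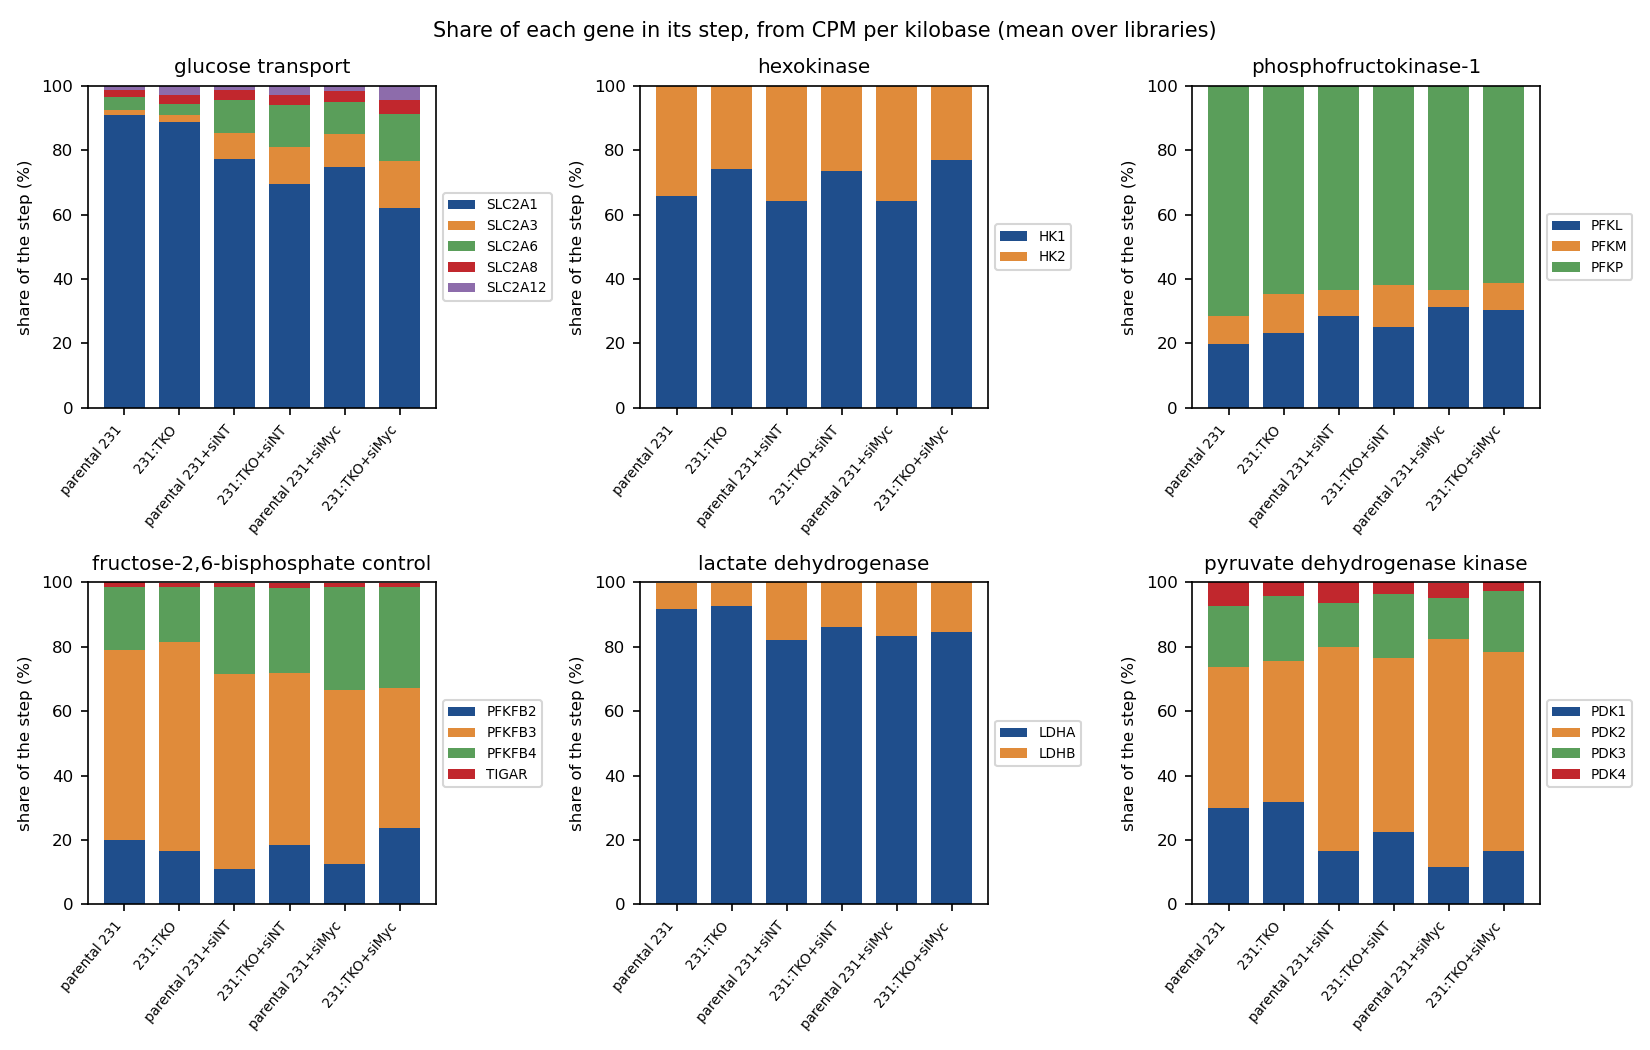
Share (%) of each gene in the summed level of its step, from CPM per kilobase, as the mean over the libraries of each group (bars, n = 2 for the untreated and 3 for the siRNA groups). SLC2A1 was 77.3% of the glucose transporters in parental 231+siNT and 62.0% in 231:TKO+siMyc, and PFKM was 8.24% of phosphofructokinase-1 in parental 231+siNT and 5.38% in parental 231+siMyc.

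In untreated cells, loss of TXNIP was accompanied by lower mRNA of the main glucose transporter and of a pair of downstream enzymes. Only 3 of the 37 genes passed an adjusted p of 0.05 (edgeR's quasi-likelihood test, Benjamini-Hochberg adjustment over 19965 genes), all lower in 231:TKO: SLC2A1, PFKP and ENO2. Over all genes tested, 9.61% were called (5.43% higher and 4.18% lower), and 13.4% of genes at 1 CPM or more, so a share of 8.11% of the 37 is near the background. The median log2 fold change of the 37 was −0.08, beside 0.00 over all genes. In bulk RNA, fewer cells of a state and less RNA per cell cannot be told apart. By unadjusted p, 11 of the 37 (29.7%) were under 0.05, beside 25.9% of all genes. Of 6 luminal epithelial markers 5 passed the filter, with 0 higher and 1 lower, CDH1 (4.69 CPM in parental 231 and 0.322 CPM in 231:TKO as means, adjusted p = 0.00726), and their summed level was 471.8 to 473.8 CPM in parental 231 and 514 to 525.4 CPM in 231:TKO. Their part in the changes was not tested.

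SLC2A1 (ENSG00000117394, chromosome 1, 42925353 to 42958893, GRCh38) was at 996 and 988 CPM in parental 231 and at 704 and 723 CPM in 231:TKO. The groups did not overlap, and the replicates of each lay close together. Its log2 fold change was −0.48 ± 0.06 (SE, n = 2 and 2, adjusted p = 0.0141). PFKP (ENSG00000067057, chromosome 10, 3066333 to 3137718) was at 416 and 417 CPM in parental 231 and at 319 and 301 CPM in 231:TKO, again without overlap. It changed by −0.43 ± 0.06 (adjusted p = 0.0192). ENO2 (ENSG00000111674, chromosome 12, 6913745 to 6923698) was at 116 and 117 CPM against 82.4 and 82.5 CPM. The replicates of each group were nearly equal, with a change of −0.51 ± 0.06 (adjusted p = 0.0126). None of the 3 was called when either parental 231 replicate was left out, with adjusted p-values of 0.346 to 0.392.

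Several other genes differed as much on average but not equally in both 231:TKO libraries. HK2, the inducible hexokinase, was at 136 and 134 CPM in parental 231 and at 72.4 and 112 CPM in 231:TKO. Both 231:TKO values were lower, yet they differed from each other by 0.63 on the log2 scale, and the change of −0.56 ± 0.22 was not called (adjusted p = 0.203). SLC2A12 (GLUT12) was at 24.1 and 14 CPM in 231:TKO against 12.2 and 12.5 CPM in parental 231. PFKFB2, which makes and removes fructose-2,6-bisphosphate, was at 40.7 and 24.5 CPM in 231:TKO against 41.8 and 42.1 CPM. For SLC2A12 the first 231:TKO replicate stood far above parental 231 and the second close to it, and for PFKFB2 the first stood close and the second far below. PDP1, the PDH phosphatase, was at 225 CPM in replicate 1 and 139 CPM in replicate 2, beside 143 and 141 CPM in parental 231. With 231:TKO replicate 1 left out 20 of the 37 genes were called, and with replicate 2 left out 22, both with a lone 231:TKO library that is assumed to vary as parental 231 does.

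In siNT-treated cells the genes changed in both directions. Of the 37, 19 passed the threshold, 10 higher and 9 lower in 231:TKO+siNT than in parental 231+siNT. Over 23310 genes tested, 36.8% were called (16.1% higher and 20.7% lower), and 50.6% of genes at 1 CPM or more, beside 51.4% of the 37. The median log2 fold change of the 37 was −0.10, beside −0.03 over all genes. Without parental 231+siNT replicate 1, 24 of the 37 and 48.2% of all genes were called. Per the file headers the alignment files of the populations carry separate set numbers and were counted with different Ensembl releases, so set, annotation release and genotype cannot be told apart in this comparison. Of 6 luminal epithelial markers, 2 were higher and 4 lower in 231:TKO+siNT, and their summed level was 1810 to 2191 CPM in parental 231+siNT and 964.6 to 1030 CPM in 231:TKO+siNT. CDH1 changed most, from a mean of 6.86 to 0.776 CPM (−3.10 ± 0.22), KRT8 went from 1394 to 669.5 CPM, and FOXA1 reached 0.62 CPM at most in any library. Their part in the changes of the 37 genes was not tested.

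**Figure D2:**
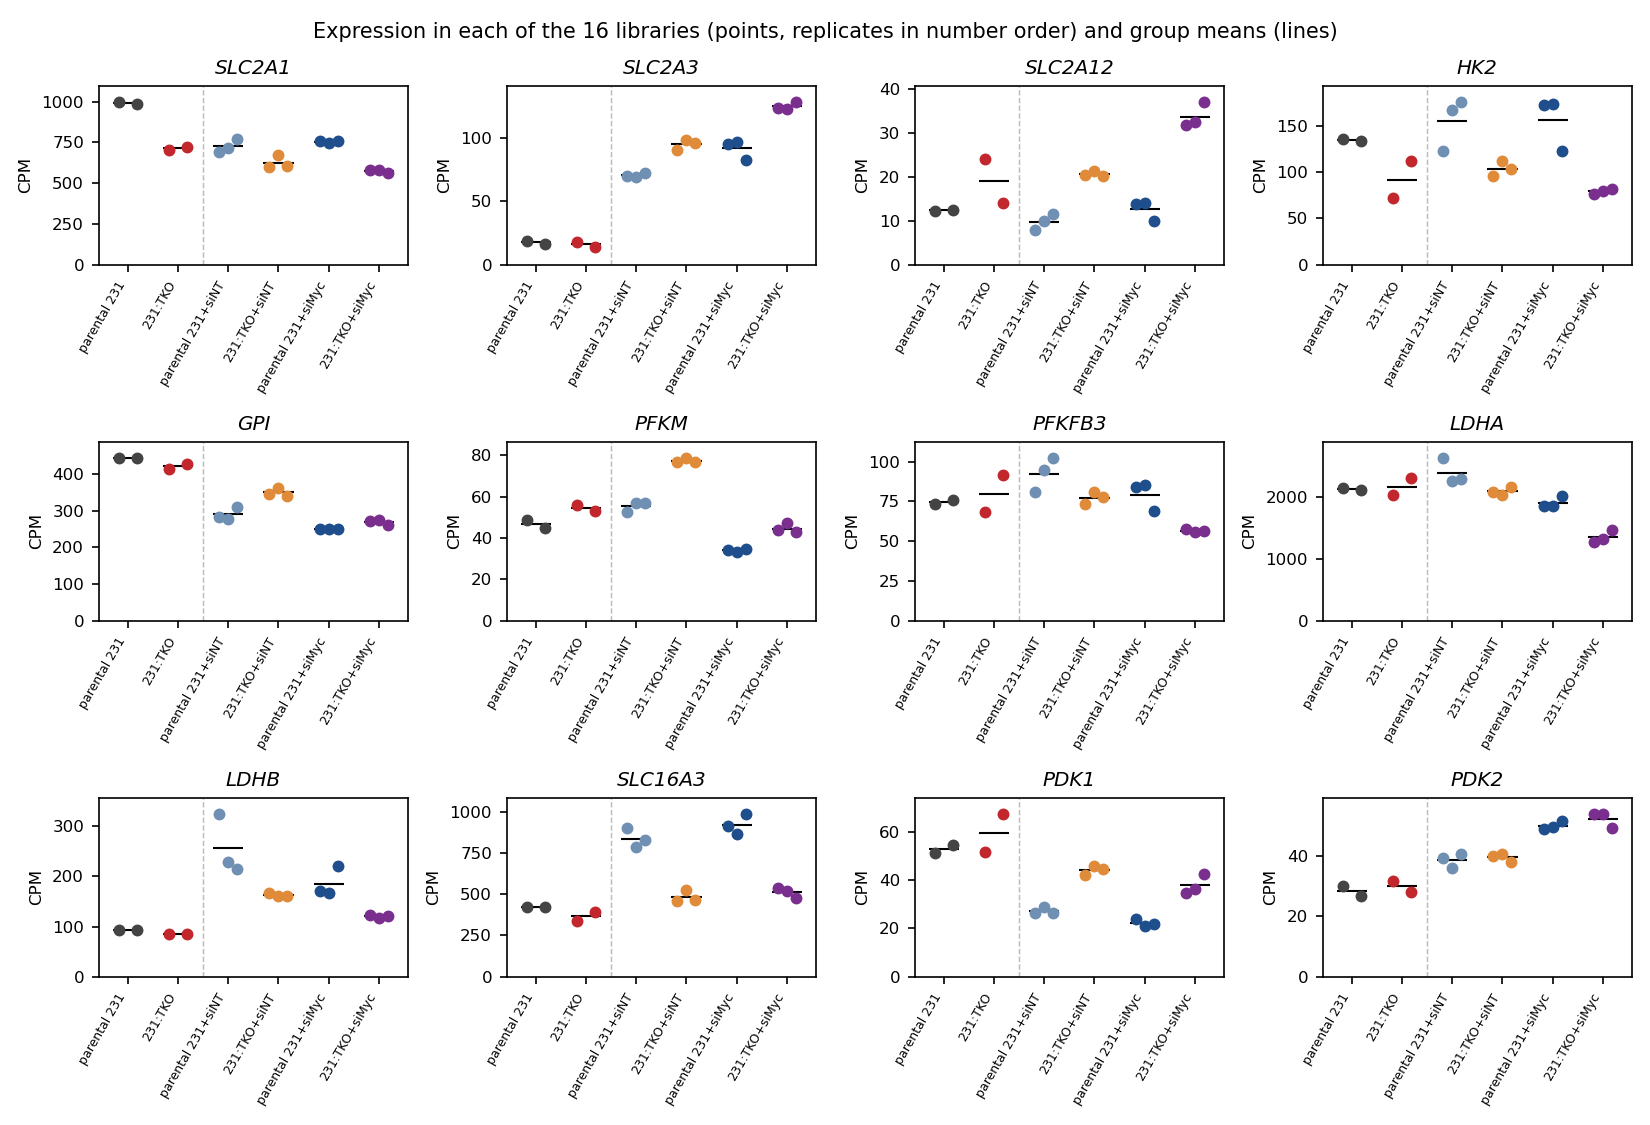
Expression (CPM, axes from 0) of 12 genes in each of the 16 libraries (points, in replicate order) with group means (lines), and a dashed line between single-read and paired-read libraries. LDHA fell from 2025 to 2150 CPM in 231:TKO+siNT to 1264 to 1457 CPM in 231:TKO+siMyc, and in parental 231 the first siNT and the third siMyc library stand apart for HK2 and LDHB.

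Glucose transport shifted in its makeup. SLC2A12 (ENSG00000146411, chromosome 6, 133987581 to 134052624) was at 7.82, 9.93 and 11.6 CPM in parental 231+siNT and at 20.5, 21.4 and 20.2 CPM in 231:TKO+siNT. Every 231:TKO library was well above every parental one, and the log2 fold change was 1.12 ± 0.14 (SE, n = 3 and 3, adjusted p = 7.85e-05, edgeR). SLC2A3 (GLUT3, a high-affinity transporter) rose by 0.46 ± 0.08 and SLC2A6 by 0.35 ± 0.09 (adjusted p = 0.00119 and 0.0123). SLC2A1 was at 691, 717 and 773 CPM in parental 231+siNT and 599, 672 and 605 CPM in 231:TKO+siNT. Its groups did not overlap, but the change of −0.18 ± 0.09 did not pass the threshold (adjusted p = 0.141). The summed transporter level per kilobase overlapped between the populations.

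Among the early enzymes, HK2 (ENSG00000159399, chromosome 2, 74834127 to 74893359) was at 123, 168 and 176 CPM in parental 231+siNT and at 95.4, 112 and 104 CPM in 231:TKO+siNT. The parental libraries were higher but spread widely, with the low value in the library that stands apart, and the change was −0.55 ± 0.13 (adjusted p = 0.00658). PFKM (ENSG00000152556, chromosome 12, 48105139 to 48146404) was at 52.6, 56.9 and 57 CPM in parental 231+siNT and at 76.8, 78.5 and 76.5 CPM in 231:TKO+siNT. It was higher in every 231:TKO library, by 0.51 ± 0.09 (adjusted p = 0.000742). PFKL, the liver type, fell by 0.31 on the log2 scale (adjusted p = 0.0207), and GPI, which converts glucose-6-phosphate to fructose-6-phosphate, rose by 0.31 ± 0.09 (adjusted p = 0.0155). PFKFB2 (ENSG00000123836, chromosome 1, 207034366 to 207081024) was at 22.8, 31.2 and 31 CPM in parental 231+siNT and at 43.2, 44.8 and 44.5 CPM in 231:TKO+siNT. Its groups were apart, with a change of 0.68 ± 0.12 (adjusted p = 0.00134). The GPI call was lost without any 231:TKO+siNT replicate or parental 231+siNT replicate 2, and the PFKL call without 231:TKO+siNT replicate 1 or 3 or parental 231+siNT replicate 2 or 3, with adjusted p-values of up to 0.121. That for SLC2A6 was lost without 231:TKO+siNT replicate 2 (adjusted p = 0.0666).

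Of the 9 genes from aldolase to pyruvate kinase, 4 were lower in 231:TKO+siNT, 0 were higher and 5 did not pass. From hexokinase to phosphoglycerate mutase, 5 of 16 genes were lower, 3 were higher and 8 did not pass. Over all genes 20.7% were lower and 16.1% higher, and 50.6% of genes at 1 CPM or more were called. ALDOC, a minor aldolase, was at 9.33, 9 and 8.55 CPM in parental 231+siNT and at 3.35, 5.66 and 4.17 CPM in 231:TKO+siNT, and was well separated (−0.995 ± 0.17, adjusted p = 0.000769). ALDOA, the main aldolase, changed by −0.35 ± 0.09 (adjusted p = 0.0119), a call lost without 231:TKO+siNT replicate 1 or 3 or parental 231+siNT replicate 3, with adjusted p-values of up to 0.0774. ENO1 (ENSG00000074800, chromosome 1, 8861000 to 8879190) was at 5470, 4701 and 4948 CPM in parental 231+siNT and at 3326, 3652 and 3379 CPM in 231:TKO+siNT. Its groups did not overlap and it changed by −0.51 ± 0.09 (adjusted p = 0.00113). PGAM1, which moves the phosphate of phosphoglycerate, was at 545, 523 and 531 CPM against 369, 372 and 365 CPM, a tight separation of −0.50 ± 0.08 (adjusted p = 0.000573). TPI1, GAPDH, PGK1 and PKM, each the only gene of its step here, did not pass, with log2 fold changes of −0.31, −0.10, −0.18 and −0.01, and neither did ENO2 (0.16 ± 0.09, adjusted p = 0.186). Assignment of reads limits a part of these values. Of the exon bases of ALDOA, 43.0% are shared with another gene on its strand. In addition, 13 pseudogenes carry the PGAM1 symbol and 65 the GAPDH symbol.

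Of the lactate genes, LDHB, the less abundant dehydrogenase, and SLC16A3, the main exporter, were lower in 231:TKO+siNT. LDHB (ENSG00000111716, chromosome 12, 21635342 to 21757857) was at 324, 229.7 and 216 CPM in parental 231+siNT and at 167, 162 and 160.1 CPM in 231:TKO+siNT. All 231:TKO values lay below, and the parental library that stands apart was the highest. The change was −0.62 ± 0.14 (adjusted p = 0.00438) and −0.40 without that library (adjusted p = 1.66e-08), and 33.4% of the exon bases of LDHB are shared with another gene on its strand. LDHA was at 2619, 2244 and 2280 CPM and at 2072, 2025 and 2150 CPM, without overlap, and its change of −0.16 ± 0.09 was not called (adjusted p = 0.204). The summed lactate dehydrogenase level per kilobase went from 480.4 to 399.6 without overlap, of which LDHA went from 394.4 to 344.9 and LDHB from 86.0 to 54.7. SLC16A3 (ENSG00000141526, chromosome 17, 82228397 to 82261129) was at 902, 786 and 829 CPM in parental 231+siNT and at 459, 529.8 and 468 CPM in 231:TKO+siNT. This wide separation gave −0.75 ± 0.09 (adjusted p = 9.46e-05). The exons counted for SLC16A3 spanned 8985 bases in the release used for 231:TKO and 9236 in that used for parental 231.

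Regulators of pyruvate dehydrogenase rose on both sides of the switch. PDK1 (ENSG00000152256, chromosome 2, 172555373 to 172608669), a hypoxia-inducible PDH kinase, was at 26.4, 28.8 and 26.5 CPM in parental 231+siNT and at 42, 45.8 and 44.5 CPM in 231:TKO+siNT. It was higher in every 231:TKO library, by 0.73 ± 0.09 (adjusted p = 9.64e-05). PDK3 (ENSG00000067992, chromosome X, 24465270 to 24550466) was at 21.8, 20.6 and 19 CPM against 34.5, 36.1 and 36.1 CPM, a change of 0.83 ± 0.09 (adjusted p = 4.2e-05) with no overlap. PDP1 (ENSG00000164951, chromosome 8, 93857807 to 93926068), which opposes the kinases, was at 107, 125 and 120.5 CPM against 208, 195 and 216 CPM. The groups were far apart, with a change of 0.85 ± 0.09 (adjusted p = 4.09e-05). PDK2 and PDK4 were not called. In the complex itself, PDHA1 rose by 0.33 ± 0.08 and PDHB fell by 0.37 on the log2 scale (adjusted p = 0.00902 and 0.0202), and both calls were lost when 231:TKO+siNT replicate 3 was left out (0.0618 and 0.0861), and that for PDHB also without replicate 1 or 2 (0.0707 and 0.0806). Without parental 231+siNT replicate 1 the PDHB change was −0.22 (adjusted p = 0.0012). DLAT and DLD did not pass. The exon length counted for DLAT was 4251 bases in one release and 7550 in the other, so its comparison between populations is uncertain.

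Because 231:TKO is clonal, the genes around each of the 37 were read as well. Within 10 Mb of a gene, the median log2 fold change of its expressed neighbours exceeded 0.25 in size for 3 of the 37 in untreated and 5 in siNT-treated cells. In untreated cells these were PDK1 (0.48 over 68 neighbours), DLAT (0.39 over 94) and PDP1 (0.28 over 68). In siNT-treated cells they were SLC2A12 (0.51 over 58 neighbours), PDHA1 (0.30 over 58), PDK3 (0.30 over 46), PDK1 (0.27 over 76) and SLC16A3 (−0.27 over 156). For PDHA1 nearly the whole change of 0.33 was matched by the neighbourhood, and for SLC2A12, PDK3, PDK1 and SLC16A3 the gene moved further than its neighbours, by 0.61, 0.53, 0.47 and −0.49. HK2 stayed below 0.25, with medians of −0.23 over 82 neighbours in untreated cells and −0.18 over 84 in siNT-treated cells. Each untreated 231:TKO library was also set against the parental 231 mean. The neighbour medians of these libraries spanned −0.53 to −0.004 for HK2, −0.30 to 0.19 for SLC2A12 and 0.13 to 0.48 for PDP1. For PFKFB2, on which the libraries also disagreed, they spanned −0.04 to 0.04. The part of copy number in these values was not tested.

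The changes in 231:TKO were set beside each other in untreated and siNT-treated cells. None of the 37 was called in both comparisons. The difference of the changes, tested in 1 fit of 10 libraries, passed for 9 of the 37 (14.1% of 25112 genes, 6.2% higher and 7.91% lower, and 24.2% of genes at 1 CPM or more). The change in 231:TKO was higher with siNT than without treatment for SLC2A3, SLC2A6, PFKFB2, ENO2, PDK1 and PDK3, and lower for ALDOA, ENO1 and SLC16A3. SLC2A6 went from −0.59 ± 0.15 in untreated cells, which was not called, to 0.35 ± 0.09 with siNT (difference 0.94 ± 0.17, adjusted p = 0.00205). ENO2, lower in untreated 231:TKO, had a change of 0.16 ± 0.09 with siNT (difference 0.67 ± 0.13, adjusted p = 0.0036). Leaving out each library in turn gave 3 to 14 of the 37, the most without parental 231+siNT replicate 1. The calls for SLC2A6, ENO2 and ALDOA passed in all 10 of these fits. That for PDK3 was lost without either parental 231 replicate, and that for PFKFB2 without either of these or parental 231+siNT replicate 1. The SLC2A3 call was lost without parental 231 replicate 1, 231:TKO replicate 2 or 231:TKO+siNT replicate 2 or 3, and the SLC16A3 call without either parental 231 replicate, 231:TKO replicate 2 or 231:TKO+siNT replicate 1 or 3. Those for ENO1 and PDK1 were lost without either parental 231 replicate, 231:TKO replicate 1 or any 231:TKO+siNT replicate, and that for PDK1 also without parental 231+siNT replicate 3 (adjusted p of 0.0513 to 0.16 over the lost calls). For HK2 the changes were close, at −0.56 ± 0.22 and −0.55 ± 0.13 (difference 0.01 ± 0.25). Read type, alignment set, transfection and possibly clone differ between these settings and cannot be told apart.

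**Figure D3:**
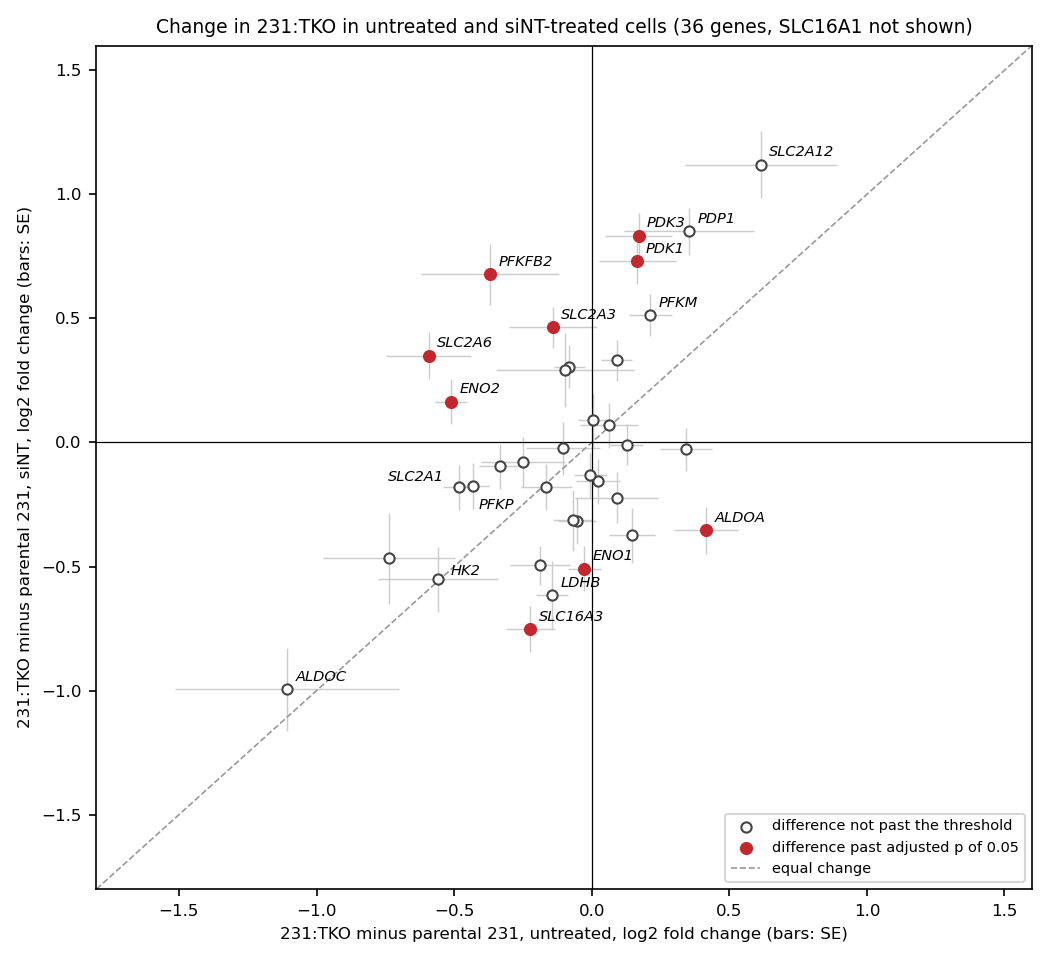
Log2 fold change of 231:TKO against parental 231 in untreated cells (x axis, n = 2 and 2) and in siNT-treated cells (y axis, n = 3 and 3) for 36 genes, with SE bars and a dashed line of equal change, SLC16A1 left out because of its 3 to 30 counts. Filled points are the 9 genes whose changes differed past the threshold, among them SLC2A6 (−0.59 and 0.35), and HK2 lies on the line at −0.56 and −0.55.

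Knockdown of Myc in 231:TKO cells lowered most of the genes it moved. Of the 37, 22 passed the threshold, 15 lower and 7 higher with siMyc. Over 22450 genes, 27.2% were called (13.9% lower and 13.3% higher), and 42.9% of genes at 1 CPM or more, beside 59.5% of the 37. Most shifts were small, and 3 reached 0.5 in size on the log2 scale: SLC2A12, PFKM and LDHA. The median over the 37 was −0.06, beside 0.01 over all genes.

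PFKM showed the widest change of the 37 after siMyc. It was at 76.8, 78.5 and 76.5 CPM in 231:TKO+siNT and at 43.6, 47 and 42.9 CPM in 231:TKO+siMyc. The groups were far apart, and the log2 fold change was −0.83 ± 0.06 (SE, n = 3 and 3, adjusted p = 1.17e-09). LDHA (ENSG00000134333, chromosome 11, 18394560 to 18408425) was at 2072, 2025 and 2150 CPM with siNT and at 1264, 1318 and 1457 CPM with siMyc. It fell in every library, by 0.66 on the log2 scale (SE 0.05, adjusted p = 3.57e-09). LDHB fell as well, from 167, 162 and 160.1 CPM to 123, 117 and 120.3 CPM (−0.47 ± 0.05, adjusted p = 2.42e-07). The summed lactate dehydrogenase level went from 399.6 CPM per kilobase to 263.3, with no overlap between libraries. SLC16A3, which exports the lactate, had a change of 0.04 ± 0.06 (adjusted p = 0.658).

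Of the 16 genes from hexokinase to phosphoglycerate mutase, 9 fell, PFKM among them, 1 rose and 6 did not pass. From aldolase to pyruvate kinase, 3 of 9 genes fell, 0 rose and 6 did not pass. Over all genes 13.9% fell and 13.3% rose, and 42.9% of genes at 1 CPM or more were called. HK2 went from 95.4, 112 and 104 CPM to 76.9, 80 and 81.3 CPM, with all siMyc values below all siNT values (−0.42 ± 0.06, adjusted p = 8.83e-06). GPI changed by −0.41 ± 0.05 and PFKFB3, the kinase-dominant maker of fructose-2,6-bisphosphate, by −0.49 ± 0.05 (adjusted p = 1.09e-06 and 6.55e-07). TPI1, GAPDH and PGAM1 fell by 0.20, 0.27 and 0.17 on the log2 scale. PFKP, HK1 and SLC2A1 fell by 0.18, 0.17 and 0.16. PFKL, ALDOA and ALDOC were not called, at 0.12 ± 0.07, 0.08 ± 0.05 and 0.21 ± 0.14. PGK1, ENO1 and PKM were not called either, at −0.12 ± 0.05, −0.04 ± 0.05 and 0.09 ± 0.05. PFKFB2 rose by 0.18 ± 0.06. The calls for SLC2A1, HK1, PFKFB2, PDK1 and PDHB were lost when a single 231:TKO library was left out (adjusted p up to 0.116 for SLC2A1 without siNT replicate 2 or siMyc replicate 2, 0.069 for HK1 without siNT replicate 3, up to 0.102 for PFKFB2 without siNT replicate 1 or 3, up to 0.0559 for PDK1 without siMyc replicate 1 or 2, and up to 0.101 for PDHB without siNT replicate 3 or siMyc replicate 2).

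Of the 4 glucose transporters other than SLC2A1, 3 rose, beside 13.3% of all genes, and SLC2A6 did not pass (0.17 ± 0.07, adjusted p = 0.0897, with overlap). SLC2A12 went from 20.5, 21.4 and 20.2 CPM in 231:TKO+siNT to 31.8, 32.5 and 37 CPM in 231:TKO+siMyc, so every siMyc library was higher (0.67 ± 0.07, adjusted p = 2.06e-07). SLC2A3 rose by 0.36 ± 0.05 and SLC2A8, an intracellular transporter, by 0.39 ± 0.09. The summed transporter level overlapped between siNT and siMyc, at 136.1 and 139.8 CPM per kilobase. At the pyruvate branch, PDK2 rose by 0.37 ± 0.06 (adjusted p = 7.36e-05) while PDK1 fell by 0.25 on the log2 scale (adjusted p = 0.00791), although the PDK1 libraries overlapped. PDP1 and PDHB rose by 0.27 ± 0.06 and 0.16 ± 0.05, and PDHA1 and DLAT fell by 0.25 and 0.33.

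**Figure D4:**
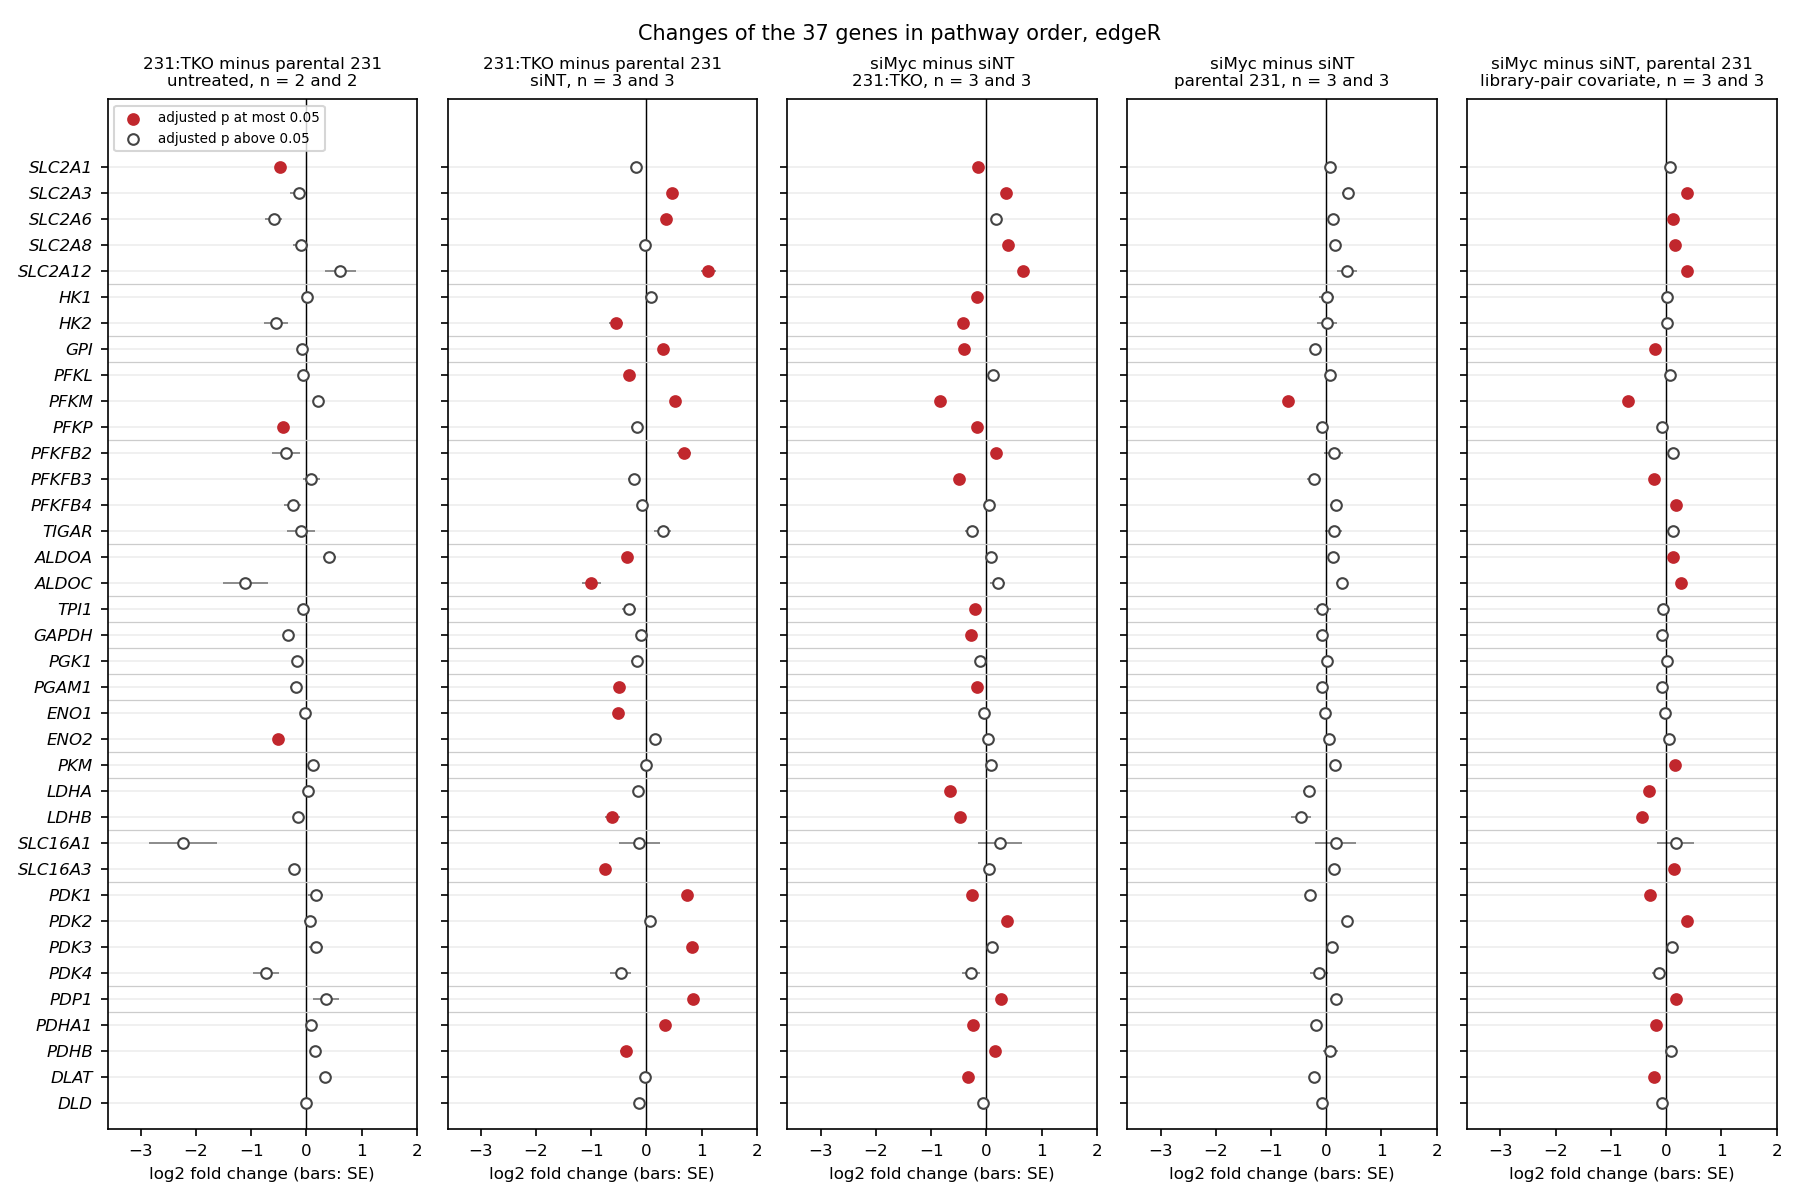
Log2 fold changes (x axis, bars SE) of the 37 genes in pathway order in the 4 comparisons, the parental 231 siMyc comparison with and without a covariate for the pair of libraries that stands apart. Filled points passed an adjusted p of 0.05, 3, 19, 22, 1 and 19 genes from left to right, and SLC16A1 has the widest bars from 3 to 30 counts per library.

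In parental 231 the same knockdown gave 1 call among the 37, beside 0.594% of 23728 genes (0.24% higher and 0.354% lower). PFKM was at 52.6, 56.9 and 57 CPM in parental 231+siNT and at 34.3, 33.3 and 34.5 CPM in parental 231+siMyc. It fell in every library without overlap, by 0.70 on the log2 scale (SE 0.09, n = 3 and 3, adjusted p = 0.0378, edgeR). By unadjusted p, 9 of the 37 (24.3%) were under 0.05, beside 14.6% of all genes, and the DESeq2 Wald test called 3. The PFKM call was lost without parental 231+siNT replicate 2 or 3 or parental 231+siMyc replicate 1 or 2, with adjusted p-values of 0.187 to 0.291 and log2 fold changes of −0.68 to −0.71.

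The pair of libraries that stands apart widened the spread of several genes. HK2 was at 123, 168 and 176 CPM in parental 231+siNT and at 173, 174 and 122 CPM in parental 231+siMyc, so the first siNT and the third siMyc library were low by the same amount. With a covariate for that pair, chosen after the data were seen, 26.8% of all genes were called (13.7% higher and 13.1% lower), and 44.7% of genes at 1 CPM or more, beside 51.4% of the 37 (19 genes, 11 higher and 8 lower). With 1 surrogate variable estimated from the data in its place the count was also 19, and with both libraries left out it was 13. These counts describe the 4 or 6 libraries under a model that used their own values.

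In that model LDHA, at 2619, 2244 and 2280 CPM with siNT and 1844, 1841 and 2007 CPM with siMyc, was lower without overlap (−0.32 ± 0.05, adjusted p = 1.37e-07). LDHB changed by −0.45 ± 0.04, GPI by −0.21 ± 0.04 and PFKFB3 by −0.21 ± 0.04. SLC2A3 and SLC2A12 both rose by 0.38 (SE 0.05 and 0.08), PDK2 rose by 0.38 ± 0.05, and PDK1 fell by 0.29 on the log2 scale. HK2 had a change of 0.01 ± 0.04. Of the genes called here and in 231:TKO, 13 in number, all 13 moved in the same direction in both populations, as did 4409 of the 4414 genes called in both (99.9%). They were SLC2A3, SLC2A8, SLC2A12, GPI, PFKM, PFKFB3, LDHA, LDHB, PDK1, PDK2, PDHA1, DLAT and PDP1.

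The responses of the populations were compared directly. The difference of the siMyc responses passed for 0 of the 37 and for 0 of 25812 genes in edgeR (0% called), with 1 of the 37, LDHA, and 1039 of all genes under an unadjusted p of 0.05, and DESeq2 called 6 genes. With the covariate for the library pair, 0.57% of genes passed, and 2 of the 37: HK2 (−0.40 ± 0.07, adjusted p = 0.000594) and LDHA (−0.32 ± 0.07, adjusted p = 0.00521). For both the siMyc change was more negative in 231:TKO than in parental 231. The same count of 2 was found with a surrogate variable and with the pair left out. For PFKM the difference was −0.10 ± 0.08 (adjusted p = 0.767). Alignment set, annotation release and genotype cannot be told apart here either.

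**Figure D5:**
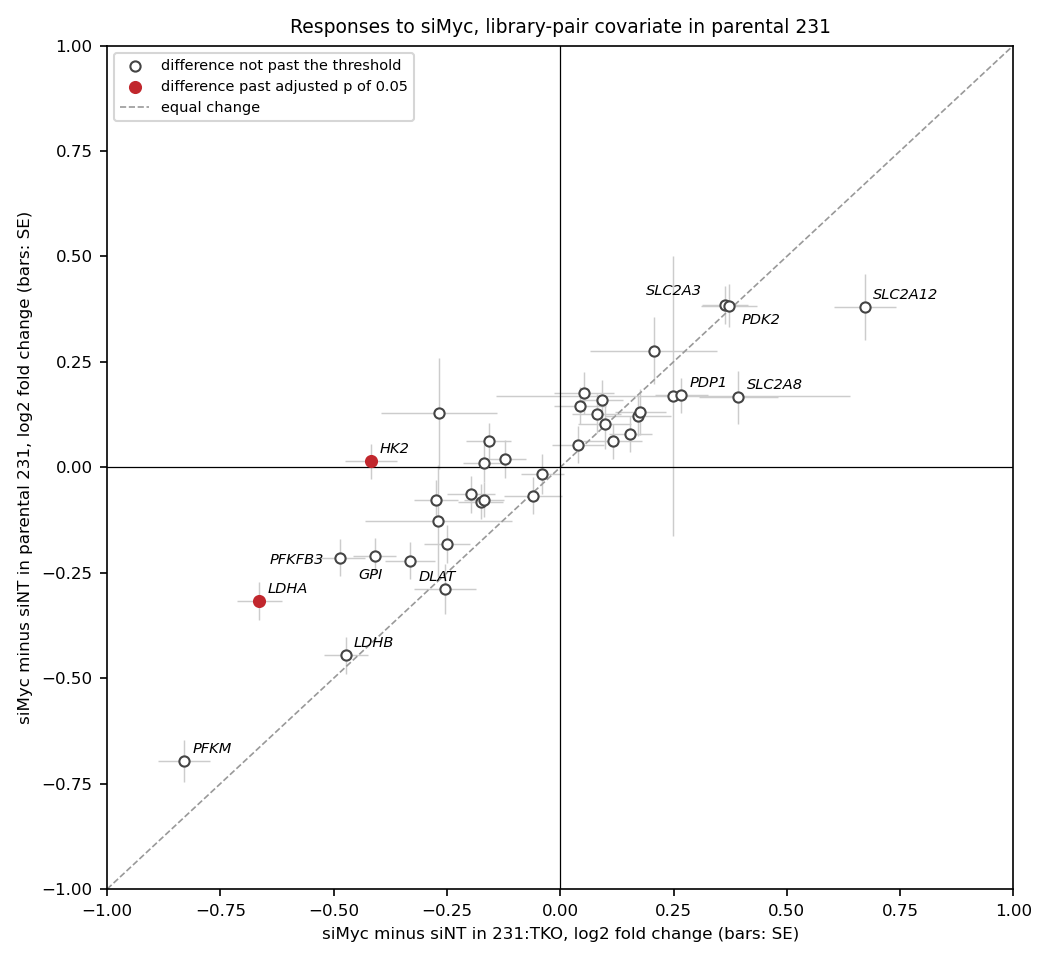
Log2 fold change of siMyc against siNT in 231:TKO (x axis) and in parental 231 with the library-pair covariate (y axis), n = 3 and 3 each, with SE bars and a dashed line of equal change. HK2 (−0.42 and 0.01) and LDHA (−0.66 and −0.32), filled, are the genes whose responses differed past the threshold in that model, and PFKM is the lowest on both axes (−0.83 and −0.70).

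Myc binds DNA with its partner MAX at the E-box CACGTG, and hypoxia-inducible factors bind sites around ACGTG, so the promoters of the genes were searched for these letters. RefSeq windows of 250 bases before to 50 after each start (GRCh38.p14) were held for 33 of the 37 genes. The 250 bases before the start held CACGTG for 8 genes, or 24.2% of the 33, beside 7.73% of 27305 genes. ACGTG on either strand, which every CACGTG also contains, was found for 19 genes (57.6%), beside 21.7% of all genes. The 33 genes have 62 windows, more per gene than the whole table of 35097, and per window CACGTG was in 12.9% beside 6.34%, and ACGTG in 35.5% beside 18.5%. The shares set beside those of the 33 genes cover every gene with a window, expressed or not. Shares among genes at 1 CPM or more were not computed. The 8 genes were HK2, PFKFB3, ALDOA, ALDOC, GAPDH, LDHA, PDK2 and PDHB. PFKM, the only one of the 37 called after siMyc in both populations without the pair covariate, had no CACGTG in any of 7 windows. Of the 13 called in both with that covariate in parental 231, PFKFB3, LDHA and PDK2 had CACGTG in a window. The sequences of 4 genes are shown, trimmed to bases outside annotated exons: LDHA and HK2, which fell in 231:TKO+siMyc and whose responses differed in the pair model, PDK2, which rose, and PDK1, which fell and has no match before its first start. Each is written 5′ to 3′ on the gene's strand, here plus, with CACGTG and any other ACGTG match on either strand in capitals.
LDHA promoter, chr11:18394313-18394559, plus strand: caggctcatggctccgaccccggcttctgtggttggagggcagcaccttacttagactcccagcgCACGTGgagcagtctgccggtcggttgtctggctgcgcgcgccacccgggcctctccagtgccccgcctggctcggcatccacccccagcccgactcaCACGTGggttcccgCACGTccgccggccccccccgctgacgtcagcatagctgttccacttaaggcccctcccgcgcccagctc
HK2 promoter, chr2:74834920-74835169, plus strand: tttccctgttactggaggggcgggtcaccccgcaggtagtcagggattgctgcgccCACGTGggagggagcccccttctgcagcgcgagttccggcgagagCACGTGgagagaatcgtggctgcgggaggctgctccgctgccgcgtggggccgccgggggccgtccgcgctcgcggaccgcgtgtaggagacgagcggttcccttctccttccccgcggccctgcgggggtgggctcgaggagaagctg
PDK2 promoter, chr17:50095101-50095284, plus strand: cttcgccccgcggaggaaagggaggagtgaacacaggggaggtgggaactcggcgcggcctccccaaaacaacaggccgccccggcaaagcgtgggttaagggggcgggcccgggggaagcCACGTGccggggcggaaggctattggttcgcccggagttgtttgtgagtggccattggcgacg
PDK1 promoter, chr2:172555123-172555372, plus strand: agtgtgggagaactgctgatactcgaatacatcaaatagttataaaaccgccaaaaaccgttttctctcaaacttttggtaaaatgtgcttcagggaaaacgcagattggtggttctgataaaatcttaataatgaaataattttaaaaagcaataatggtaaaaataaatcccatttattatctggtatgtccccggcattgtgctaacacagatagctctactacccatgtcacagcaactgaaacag
Before another PDK1 start, not shown, the full 250 bases hold 2 ACGTG and 0 CACGTG matches, and the part before the first exonic base holds 0 of either. The LDHA and HK2 stretches hold 2 CACGTG each and the PDK2 stretch 1. CACGTG was in 1 of 2 windows for LDHA, 1 of 2 for HK2 and 1 of 3 for PDK2. The windows without it are not shown. The HK2 stretch lies within the annotated span of HK2, which begins at 74834127, and so stands before a later start. Of the 8 genes with CACGTG, HK2, PFKFB3, GAPDH and LDHA fell after siMyc in 231:TKO. PDK2 and PDHB rose, and ALDOA and ALDOC were not called. The matched letters thus stood before genes that fell, rose or did not pass, and binding was not measured here.

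Genes of neighbouring pathways were read from lists chosen by function. Of 38 other glycolysis and transport genes, 26 passed the filter in the untreated comparison, and 0 were higher and 1 lower in 231:TKO. In the siNT comparison 27 passed it, with 8 higher and 6 lower, and after siMyc in 231:TKO 25 passed it, with 3 higher and 3 lower. Over all genes 9.61%, 36.8% and 27.2% were called in these 3 comparisons, and 13.4%, 50.6% and 42.9% of genes at 1 CPM or more. SLC16A7, which encodes the lactate and pyruvate transporter MCT2, averaged 9.92 CPM in parental 231+siNT and 0.85 CPM in 231:TKO+siNT (−3.51 ± 0.17, adjusted p = 5.34e-08). In the untreated libraries it averaged 53.8 CPM in parental 231 and 9.88 CPM in 231:TKO. BSG, the chaperone of the lactate transporters, was higher in 231:TKO+siNT by 0.32 ± 0.09 (adjusted p = 0.017). Its untreated means went the other way, at 548 CPM in parental 231 and 491 CPM in 231:TKO. Of 18 hypoxia-inducible genes outside glycolysis, 6 were lower and 0 higher in untreated 231:TKO (median −0.29), and 13 were lower and 1 higher in 231:TKO+siNT (median −0.47). Over all genes 4.18% and 20.7% were lower in these comparisons, with medians of 0.00 and −0.03. Among them VEGFA, an angiogenic factor, changed by −0.92 ± 0.06 in untreated and −0.52 ± 0.11 in siNT-treated cells, and ADM by −1.46 ± 0.17 and −0.80 ± 0.10. The part of these lists in the changes of the 37 genes was not tested.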

How the data were processed

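The RNA of 16 libraries was counted by the authors with featureCounts 1.6.3 after alignment to GRCh38 by STAR, with genes of Ensembl release 102 (104 for the siRNA-treated parental 231 libraries, per the file headers), reverse-stranded, each read given to the gene of largest overlap. The deposited values are raw counts per gene. Identifiers were joined across releases, where 97.4% had the same exon length, and 58705 of 60719 matched a symbol. Genes whose counts in the libraries of a fit added up to over 5 were tested with edgeR 4.0.16 (robust quasi-likelihood test, TMM scaling, Benjamini-Hochberg adjustment over all genes tested, threshold 0.05, two-sided) in R 4.3.3. Printed CPM come from 1 TMM scaling of all 16 libraries, and fold changes from the fit of each comparison. The script was tested on simulated data. Alternatives were DESeq2 1.42.0, its size factors, other filters and thresholds, a replicate block, 1 surrogate variable (sva 3.50.0), 1 fit of the siRNA libraries, and each replicate left out. A covariate for the pair of libraries that stands apart, leaving that pair out, and leaving out each replicate for the difference of the changes in 231:TKO were added after the data were seen.

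Genes called with a change of 0.5 or more in size (log2) are named with per-library values, others by isoform or step. The 37 genes were chosen by name, not by a threshold on their values, but they and the other lists were drawn up with earlier results of these data known. The labels do not say that replicates are separate cultures, so p-values measure the spread between these libraries. Intervals from counting were not needed at this depth, except for SLC16A1, whose floor of 3 counts covers counting error only. No protein sequences were used here.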

Additional observations from a re-analysis of the deposited data

Results flagged for a closer look

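The change of 231:TKO against parental 231 differed between siNT-treated and untreated cells for 9 of the 37 genes (24.3%, beside 24.2% of genes at 1 CPM or more), by a test of the difference itself in 1 fit of 10 libraries (edgeR's quasi-likelihood test, siNT minus untreated, log2 scale). It was higher with siNT for PFKFB2 (1.05 ± 0.26, adjusted p = 0.0149), SLC2A6 (0.94 ± 0.17, adjusted p = 0.00205), ENO2 (0.67 ± 0.13, adjusted p = 0.0036), PDK3 (0.66 ± 0.16, adjusted p = 0.0127), SLC2A3 (0.60 ± 0.16, adjusted p = 0.0227) and PDK1 (0.56 ± 0.16, adjusted p = 0.0319). It was lower with siNT for ALDOA (−0.77 ± 0.16, adjusted p = 0.00437), SLC16A3 (−0.53 ± 0.15, adjusted p = 0.0294) and ENO1 (−0.49 ± 0.14, adjusted p = 0.0341). Untreated and siRNA libraries differ in read type and alignment set, and the untreated 231:TKO replicates disagree with each other on PFKFB2 (40.7 and 24.5 CPM). Their part in these differences was not tested.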

How the results depend on the processing

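Direction was followed only for those of the 37 genes called in the main fit of a comparison, and none of these reversed under any alternative. For the difference of the siMyc responses 0 were called, so none was followed. Counts of the 37 genes called moved as follows. In untreated cells, 3 became 5 with DESeq2, 8 with no filter on low counts, 0 at an adjusted p of 0.01, 1 at a log2 fold change of 0.5 and 1 with a replicate block, and leaving out each replicate gave 0 to 22. With siNT, 19 became 11 at a log2 fold change of 0.5, and leaving out each replicate gave 14 to 24. After siMyc in 231:TKO, 22 became 3 at 0.5 and 10 in 1 fit of the 12 siRNA libraries and leaving out each replicate gave 19 to 28. After siMyc in parental 231, 1 became 3 with DESeq2, 0 at 0.01, 0 with a replicate block, 19 with 1 surrogate variable, 5 in the fit of 12 libraries, 19 with the covariate for the library pair and 13 without the pair, and leaving out each replicate gave 0 to 1. The difference of the responses went from 0 to 2 with the surrogate variable, the covariate or the pair left out. The difference of the changes in 231:TKO went from 9 to 3 at 0.01, and leaving out each replicate, added after the data were seen, gave 3 to 14. Over all genes, the untreated count of 1919 became 229 at 0.01, 904 with a replicate block, 0 without either parental 231 replicate, and 7002 or 6797 without 231:TKO replicate 1 or 2. The siMyc count in 231:TKO of 6106 became 1639 at 0.5 and 2493 in the fit of 12 libraries. The count of 141 in parental 231 became 1110 with DESeq2, 91 with its size factors, 330 with no filter, 225 with a filter in every library, 0 at 0.01 or with a replicate block, 6391 with the surrogate variable, 1666 in the fit of 12 libraries, 6363 with the covariate and 4673 without the pair. The count of 0 for the difference of the responses became 6 with DESeq2, 146 with the surrogate variable, 147 with the covariate and 63 without the pair, and 3544 for the difference of the changes became 1802 at 0.01 and 1758 to 5066 with each replicate left out. Why these counts moved was not tested beyond the construction of each alternative. Deviations of equally numbered libraries correlated by −0.77 to 0.58 in the siMyc comparison of parental 231, where the pair that stands apart has unequal numbers. In the other comparisons of 2 groups the correlations were −0.12 to 0.21. With 2 or 3 libraries a group, these values cannot tell whether replicates were paired. The replicate block gave 1, 19, 24, 0, 0 and 8 of the 37 genes in the 6 comparisons, in the order above. Depth limits the values of SLC16A1, at 3 to 30 counts a library.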
